A study of Mus musculus with 44 samples.

Results

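The genes described here carry glucose into the cell, break it down to pyruvate and lactate, gate the entry of pyruvate into the mitochondrion, or store glucose as glycogen. They were taken by symbol from a list of 36 genes, and 32 of these had a probe set of their own among the 12394 genes measured. Gpi1, Pfkfb1, Eno1 and Pdp1 were not analysed here, because the probe annotation used pairs none of its single-gene probe sets with those symbols. For 17 of the 32 genes more than 1 probe set was present, and the one whose SD across the 44 arrays was largest was used.

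Left ventricular RNA of 44 mice was hybridised, 1 Affymetrix array per mouse. The PKCε mice carried a constitutively active rabbit protein kinase C epsilon that the Myh6 promoter drives in cardiomyocytes, on the FVB/N background, and the controls (called FVB) were nontransgenic FVB/N mice. Mice of each kind were injected intraperitoneally with control IgG or with FG-3149, a monoclonal antibody against connective tissue growth factor (the product of Ccn2), at 30 mg/kg, 2 times a week for 3 months from 3 months of age, and hearts were taken at 6 months. The groups held 10 FVB IgG mice (7 female), 12 FVB antibody mice (6 female), 10 PKCε IgG mice (5 female) and 12 PKCε antibody mice (6 female). Every group therefore received an injected immunoglobulin, and no uninjected mice were analysed here. Whether the PKCε mice all descend from 1 founder is not given in the sources used here.

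Glucose enters cardiomyocytes through the transporters GLUT1 (Slc2a1) and the insulin-responsive GLUT4 (Slc2a4), is trapped by hexokinase, and is committed to glycolysis at phosphofructokinase. The adult heart burns mostly fatty acids, and pyruvate dehydrogenase kinases hold back the oxidation of pyruvate, whereas the fetal heart relies more on glycolysis and uses other isoforms of several of the same enzymes. A return towards fetal isoforms is a known feature of the hypertrophied and failing heart.

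All values are log2 ratios of a gene to its own median over the 44 arrays, so they compare groups and say nothing of which gene is more abundant. A positive log2 difference means higher in the group named first, and a gene was called at an adjusted p under 0.05 in the limma fit of all genes with a term for sex. The Prkce probe set exceeded its FVB IgG level in PKCε IgG hearts by 0.49 ± 0.15 (SE), and that of Ccn2 by 0.74 ± 0.23. Whether the Prkce probe set reads the rabbit transgene, the mouse gene or both was not tested. In bulk RNA, fewer cells of a type and less RNA per cell cannot be told apart.

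Some arrays stood apart. The atrial markers Sln, Myl7 and Myl4 averaged over 4 on 5 FVB IgG, 1 FVB antibody, 2 PKCε IgG and 2 PKCε antibody arrays, and the lung markers Sftpc and Scgb1a1 were both over 3 on PKCε IgG arrays 9 and 10. The Y-linked gene Uty read 3.63 on array 11 of the FVB antibody group although its label is female. The remaining female arrays did not exceed 0.02, and no male array fell below 3.78. The Gapdh control probe sets for the 3′ and 5′ ends, a sign of RNA quality, differed by -0.04 ± 0.08 (SD, n = 10) in FVB IgG, -0.13 ± 0.20 (n = 12) in FVB antibody, 0.30 ± 0.25 (n = 10) in PKCε IgG and 0.04 ± 0.11 (n = 12) in PKCε antibody hearts. The same difference for the Actb control probe sets was 0.10 ± 0.10, -0.06 ± 0.18, 0.09 ± 0.25 and -0.05 ± 0.16 in that order. The Actb difference averaged alike in the FVB IgG and PKCε IgG groups and lower in both antibody groups, and no fit used it. Of the fibroblast markers 8 of 8 were called higher and of the ventricular cardiomyocyte markers 5 of 10 were called lower in PKCε IgG than in FVB IgG hearts. The cardiomyocyte level, the mean over those markers on an array, ran from -0.14 to 0.29 in FVB IgG, from 0.04 to 0.18 in FVB antibody, from -0.41 to -0.02 in PKCε IgG and from -0.23 to 0.01 in PKCε antibody hearts. The part of these differences in the results below was not tested, except where a value without the arrays, or with the Gapdh difference in the fit, is given.

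Setting PKCε IgG against FVB IgG hearts addresses how the transgene changes glucose handling. Of the 32 genes 15 were called, 3 higher and 12 lower, which is 46.9% beside 42.2% of all genes tested (20.7% higher and 21.5% lower), so the number called was near the background. The median difference was -0.10 for the 32 genes and -0.05 for all genes. The genes called higher were Pfkp, Ldha and Ugp2. Those called lower were Slc2a4 in transport, Aldoc, Pfkfb2, Pgam2 and Eno3 in glycolysis, Ldhb, the kinases Pdk2 and Pdk4, and Gys1, Gbe1, Pgm1 and Phka1 in glycogen metabolism.

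Setting PKCε antibody against PKCε IgG hearts addresses what blocking CTGF changes in the diseased ventricle. Here 7 of the 32 genes were called, which is 21.9% beside 8.82% of all genes, with Slc2a4, Pfkfb2, Pfkfb3, Eno3 and Pdk2 higher (5 genes, beside 5.08% of all genes) and Pfkp and Pgk1 lower (2 genes, beside 3.74%). The median difference was 0.12 for the 32 genes and 0.02 for all genes. Between these 2 groups 3 of 10 ventricular cardiomyocyte markers were called higher and 0 lower. Of 8 fibroblast markers 3 were called lower and 0 higher. The part of these marker differences in the 7 calls was not tested. This comparison and the one above share the PKCε IgG arrays, so the values of a gene in both are given side by side and their opposite signs are not separate evidence. In FVB mice the antibody called 0 of the 32 genes in limma, beside 9.0% of all genes. An unadjusted p under 0.05 was found for 5 of the 32 (Hk2, Slc16a1, Pdk3, Pygm and Ugp2), beside 2780 of all 12394 genes.

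**Figure D1:**
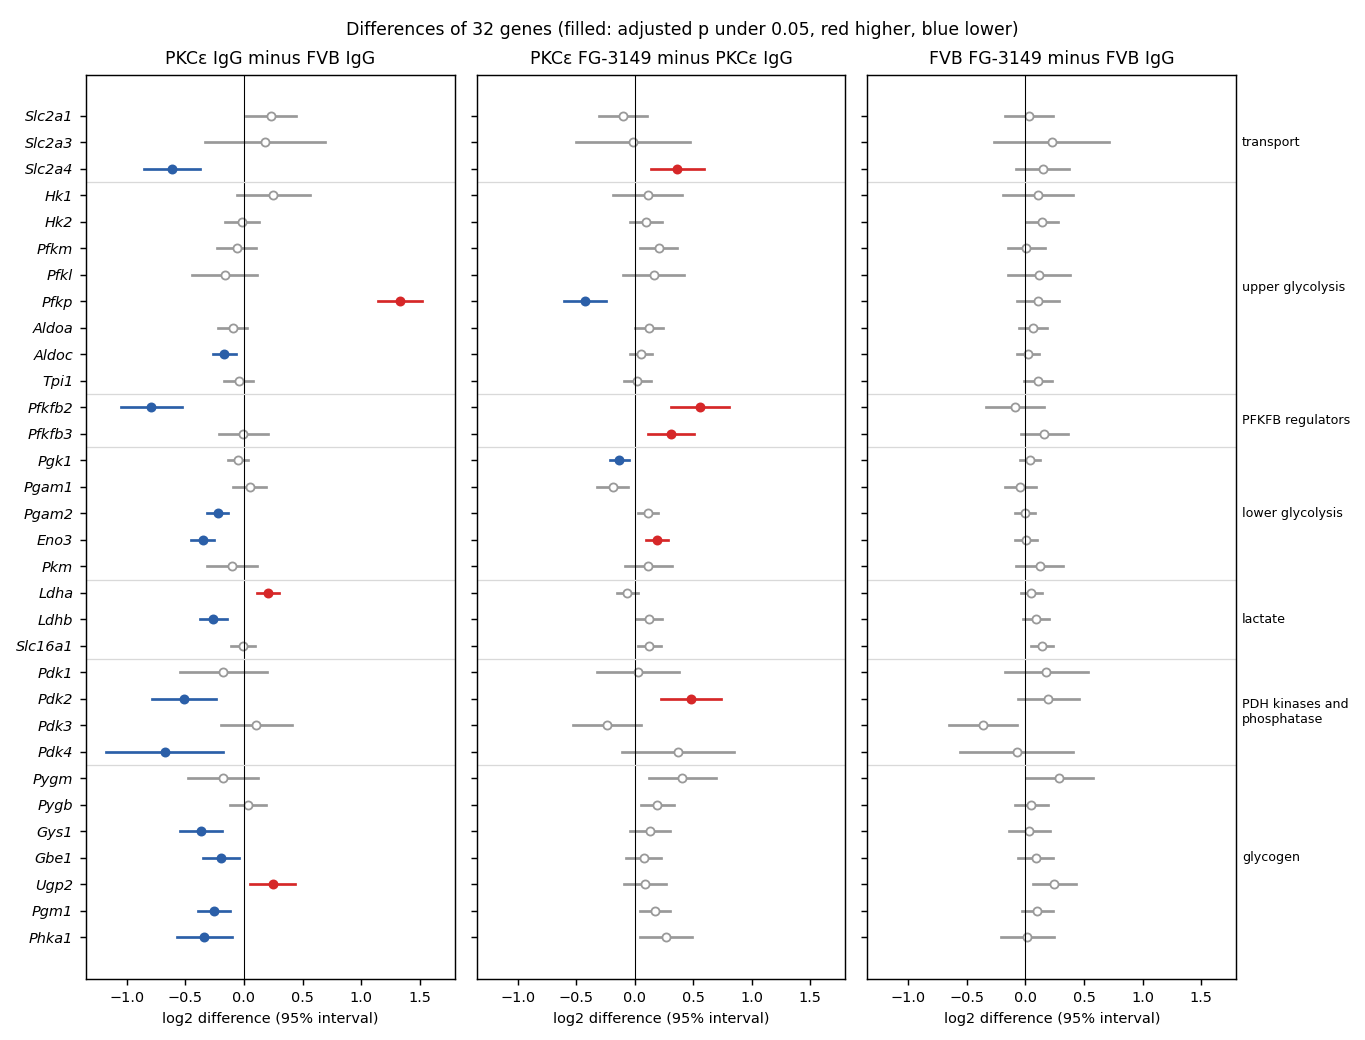
Log2 difference of each of the 32 genes with its 95% interval, for PKCε IgG minus FVB IgG (left), PKCε antibody minus PKCε IgG (middle) and FVB antibody minus FVB IgG (right), with filled points called at an adjusted p under 0.05. Pfkp at 1.33 stands to the right of every other gene in the left panel and is the leftmost filled point in the middle panel at -0.42, and no point is filled in the right panel.

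Among the transporters, Slc2a4 was the gene called. GLUT4 brings glucose into muscle and fat cells in answer to insulin. Its log2 ratio ran from -0.18 through a median of 0.11 to 0.47 in FVB IgG, from -0.08 through 0.29 to 0.96 in FVB antibody, from -0.98 through -0.45 to 0.03 in PKCε IgG and from -0.42 through -0.07 to 0.27 in PKCε antibody hearts. The PKCε IgG hearts were lowest, with 8 of 10 below every FVB IgG heart and 10 of 10 below the FVB IgG median, although the ranges overlapped. The transgene difference was -0.62 ± 0.12 (SE), or 1.53-fold lower, with an adjusted p of 4.11e-05. Under the antibody the PKCε hearts were higher by 0.36 ± 0.11 than under IgG (1.29-fold, adjusted p 0.0336), with 12 of 12 above the PKCε IgG median. They still lay below the FVB antibody hearts by -0.40 ± 0.11 (adjusted p 0.00226).

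The antibody difference of Slc2a4 changed its call when arrays were left out and when the Gapdh difference was in the fit. It was 0.33 without the 10 atrial arrays (adjusted p 0.142), 0.25 without the 2 lung arrays (adjusted p 0.224) and 0.15 with the Gapdh difference in the fit (adjusted p 0.558), and 8 of the 44 single arrays ended the call when left out. The transgene difference stayed called in those 3 fits, at -0.65, -0.50 and -0.33, and the other probe set of Slc2a4 gave -0.42 for the transgene and 0.19 for the antibody, of which the first was called. Fat also uses GLUT4, and 5 of 6 measured adipocyte markers were lower in PKCε IgG than in FVB IgG hearts, with a mean level of 1.40 ± 1.40 in FVB and -0.24 ± 0.47 in PKCε hearts under IgG, and -0.15 ± 0.52 in FVB and -0.17 ± 0.51 in PKCε hearts under the antibody. The part of these markers in the Slc2a4 differences was not tested.

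The other transporters were not called in any comparison between groups in the main fit. Slc2a1, the basal transporter that predominates in the fetal heart, averaged 0.01 ± 0.26 in FVB and 0.14 ± 0.45 in PKCε hearts under IgG, and -0.06 ± 0.27 in FVB and 0.05 ± 0.38 in PKCε hearts under the antibody. Its transgene difference was 0.23 with an interval from 0.02 to 0.45 and an adjusted p of 0.0761. Some alternative fits called it and others did not. It was called with centred arrays (0.265, adjusted p 0.0497), with the 2 groups alone (0.252, adjusted p 0.0448) and in females alone (0.358, adjusted p 0.0243). Slc2a3, a transporter best known from neurons and blood cells, differed by 0.18 with an interval from -0.33 to 0.69, which leaves a change of either sign possible.

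The largest difference of the 32 genes was that of Pfkp, the platelet-type isoform of phosphofructokinase, which commits fructose phosphate to glycolysis. Its log2 ratio ran from -0.73 through a median of -0.42 to -0.30 in FVB IgG and from -0.59 through -0.36 to -0.10 in FVB antibody hearts. In PKCε hearts it ran from 0.42 through 0.85 to 1.21 under IgG and from 0.09 through 0.35 to 0.92 under the antibody. Every PKCε heart lay above every FVB heart given the same injection, as held for 4.38% of all genes between the IgG groups in either direction and for 5.25% between the antibody groups. The transgene difference was 1.33 ± 0.09, or 2.52-fold (adjusted p 1.36e-14), under IgG and 0.81 ± 0.08, or 1.75-fold (adjusted p 3.43e-10), under the antibody.

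With the antibody, Pfkp in PKCε hearts fell by 0.42 ± 0.09 on the log2 scale (1.34-fold lower, adjusted p 0.0018), and 8 of 12 PKCε antibody hearts lay below every PKCε IgG heart. In FVB hearts the antibody difference was 0.10, and the difference between the antibody effects was -0.53 ± 0.13 (adjusted p 0.00993). Pfkp and Pfkfb2 were the 2 genes of the 32 for which the antibody effect differed between the kinds of mice, beside 3.86% of all genes (2.09% with a more positive effect in PKCε mice, as for Pfkfb2, and 1.78% with a more negative one, as for Pfkp). Without the atrial arrays that difference was -0.47 with an adjusted p of 0.0765. All of these values rest on 1 of the 2 Pfkp probe sets: the other gave -0.05 for the transgene and 0.11 for the antibody in PKCε mice, neither called, and with the mean of both probe sets the antibody difference was -0.15 (adjusted p 0.0931). With that mean the difference between the antibody effects was not called either.

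**Figure D2:**
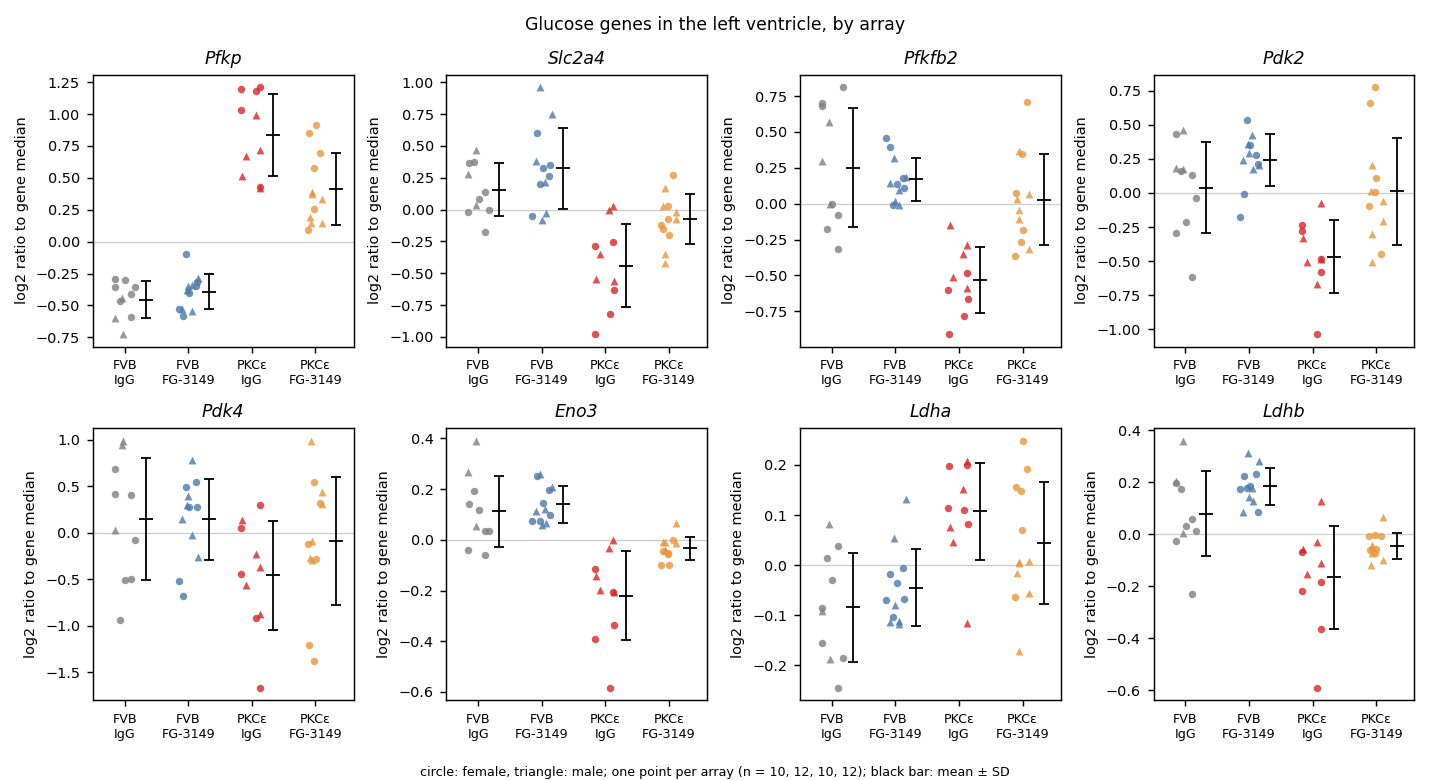
Log2 ratio to the gene's median on each array for 8 genes, with circles for females, triangles for males, and the mean ± SD of each group beside its points. Pfkp separates all PKCε from all FVB hearts, while Slc2a4, Pfkfb2, Pdk2 and Eno3 are lowest in PKCε IgG hearts and the 4 groups of Pdk4 overlap widely.

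The remaining genes of the hexose steps had smaller differences. Aldoc, the brain-type aldolase that splits fructose bisphosphate, was lower in PKCε than in FVB hearts under IgG by -0.17 ± 0.05 (adjusted p 0.00397) and under the antibody by -0.13 ± 0.04 (adjusted p 0.0103). Its other probe set gave -0.12 (adjusted p 0.0577) and -0.05 (adjusted p 0.37), neither called. The muscle phosphofructokinase Pfkm and the muscle aldolase Aldoa were not called, with transgene differences of -0.06 (interval -0.23 to 0.11) and -0.10 (interval -0.22 to 0.03). Neither was the muscle hexokinase Hk2, at -0.02 with an interval from -0.16 to 0.13, nor the liver phosphofructokinase Pfkl, at -0.16 with an interval from -0.44 to 0.11. Without the atrial arrays Pfkl was called lower (-0.42, adjusted p 0.0386). Hk1, the ubiquitous hexokinase, was not called at 0.25 ± 0.15, but its other probe set was, at 0.34 with an adjusted p of 0.00148. Tpi1, the triose phosphate isomerase, was lower in PKCε than in FVB hearts given the antibody by -0.13 ± 0.06 (adjusted p 0.0489), and that call ended when any of 25 of the 44 arrays was left out.

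Phosphofructokinase is switched on by a sugar bisphosphate that the PFKFB enzymes make and remove, and Pfkfb2 encodes the isoform of the heart. Its log2 ratio ran from -0.31 through a median of 0.15 to 0.81 in FVB IgG, from -0.01 through 0.14 to 0.46 in FVB antibody, from -0.91 through -0.55 to -0.15 in PKCε IgG and from -0.36 through -0.01 to 0.71 in PKCε antibody hearts. All 10 PKCε IgG hearts were below the FVB IgG median and 8 were below every FVB IgG heart. The transgene difference was -0.79 ± 0.13, or 1.73-fold lower (adjusted p 2.94e-06).

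With the antibody, Pfkfb2 in PKCε hearts was higher by 0.56 ± 0.12 (1.47-fold, adjusted p 0.00251), and 12 of 12 hearts lay above the PKCε IgG median. In FVB hearts it differed by -0.09, and the difference between the antibody effects was 0.65 ± 0.17 (adjusted p 0.0233), or 0.61 (adjusted p 0.0577) without the 2 lung arrays. PKCε and FVB hearts given the antibody were not called different, at -0.14. The other probe sets of Pfkfb2 gave -0.67 and -0.01 for the transgene and 0.36 and 0.13 for the antibody, of which the -0.67 alone was called. For the difference between the antibody effects they gave 0.55 (adjusted p 0.0615) and -0.03 (adjusted p 0.951).

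Pfkfb3, the inducible isoform that favours synthesis of the activator, was not called with the transgene (-0.01, interval -0.21 to 0.20). With the antibody it was higher in PKCε hearts by 0.31 ± 0.10 (adjusted p 0.0362), with 11 of 12 above the PKCε IgG median. The call ended when any of 10 single arrays was left out and without the atrial arrays (0.35, adjusted p 0.0638), and the other probe set gave 0.00.

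The promoters of the 2 genes with the largest called rise and fall, Pfkp and Pfkfb2, and of Ldha, a textbook target of hypoxia-inducible factor, are printed to show their sequence beside these changes. They are RefSeq windows of GRCm38.p6, 5′ to 3′ on the gene's strand, from 250 bases before to 50 after an annotated start, for Ldha the first of 2 listed and for Pfkfb2 the first of 3. Capitals mark ACGTG or GCGTG, the core to which hypoxia-inducible factor binds, or their reverse complements CACGT and CACGC. The palindrome CACGTG, which holds the core on both strands, is also the E-box that MYC and USF bind. Pfkp lies at chr13:6648722-6649021 (minus strand), Ldha at chr7:46845554-46845853 (plus strand) and Pfkfb2 at chr1:130715772-130716071 (minus strand).
Pfkp: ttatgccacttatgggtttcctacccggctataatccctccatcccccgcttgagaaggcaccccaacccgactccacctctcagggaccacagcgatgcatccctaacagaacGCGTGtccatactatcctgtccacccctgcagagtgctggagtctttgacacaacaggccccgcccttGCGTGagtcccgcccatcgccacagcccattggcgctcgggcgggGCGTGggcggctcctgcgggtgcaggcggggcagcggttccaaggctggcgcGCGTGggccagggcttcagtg
Ldha: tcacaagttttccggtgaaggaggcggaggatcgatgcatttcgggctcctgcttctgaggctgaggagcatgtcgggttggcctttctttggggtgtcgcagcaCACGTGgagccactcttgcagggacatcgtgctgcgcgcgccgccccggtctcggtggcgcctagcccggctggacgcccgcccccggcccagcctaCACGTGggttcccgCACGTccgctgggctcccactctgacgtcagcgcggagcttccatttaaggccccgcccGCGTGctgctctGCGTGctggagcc
Pfkfb2: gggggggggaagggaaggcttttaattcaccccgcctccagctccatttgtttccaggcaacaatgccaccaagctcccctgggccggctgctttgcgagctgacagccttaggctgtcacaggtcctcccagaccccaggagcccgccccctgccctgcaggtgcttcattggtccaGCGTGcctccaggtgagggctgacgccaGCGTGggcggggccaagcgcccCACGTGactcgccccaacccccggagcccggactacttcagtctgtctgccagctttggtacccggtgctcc

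The Pfkp window held 4 runs of the core, the Ldha window 5, of which 2 were CACGTG, and the Pfkfb2 window 3, of which 1 was CACGTG. Among all 32851 windows of the same length 43.8% held the core and 7.15% held CACGTG, and among the 45 windows of the 30 genes here that had one, 34 (75.6%) held the core. The GC content of the 3 windows was 64.7%, 67.3% and 66.0%. A match of letters is a description of the sequence and not a measured site: Pfkp and Ldha, which were higher, and Pfkfb2, which was lower, all held the core.

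In the lower steps of glycolysis the muscle isoforms were lower in PKCε hearts. Eno3, the muscle enolase, had log2 ratios from -0.06 through a median of 0.09 to 0.39 in FVB IgG, from 0.06 through 0.12 to 0.26 in FVB antibody, from -0.58 through -0.20 to 0.00 in PKCε IgG and from -0.10 through -0.04 to 0.07 in PKCε antibody hearts. The PKCε IgG hearts were lowest and the most scattered, with 8 of 10 below every FVB IgG heart. The transgene difference was -0.35 ± 0.05, or 1.28-fold lower (adjusted p 1.69e-07).

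With the antibody Eno3 was higher in PKCε hearts by 0.19 ± 0.05 (adjusted p 0.00826), and 12 of 12 lay above the PKCε IgG median. That difference was 0.18 (adjusted p 0.0589) without the atrial arrays, 0.13 (adjusted p 0.0845) without the lung arrays and 0.17 (adjusted p 0.0702) with the Gapdh difference in the fit. Pgam2, the muscle phosphoglycerate mutase, was lower in PKCε IgG than in FVB IgG hearts by -0.22 ± 0.04 (adjusted p 7.15e-05), with group means of -0.15 ± 0.19 (SD, n = 10) and 0.04 ± 0.12 (n = 10). Its antibody difference of 0.11 in PKCε hearts had an adjusted p of 0.0879.

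The isoforms found in most tissues were not called with the transgene under IgG. Pgam1 differed by 0.05 with the transgene (interval -0.09 to 0.19) and by -0.19 with the antibody in PKCε hearts (adjusted p 0.0629). Pgk1, the phosphoglycerate kinase, was not called with the transgene under IgG (-0.05, interval -0.14 to 0.04). With the antibody it fell by 0.13 ± 0.04 in PKCε hearts (adjusted p 0.0371), with 11 of 12 below the PKCε IgG median, and its other 2 probe sets gave -0.19 each, both called. That call, on the probe set used, ended when any of 12 single arrays was left out and without both lung arrays (-0.13, adjusted p 0.0845). Pkm, the pyruvate kinase of muscle and most tissues, was not called in any comparison of groups.

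Lactate dehydrogenase is built from an A and a B subunit, and heart is known for its high share of B. Ldha rose in PKCε IgG relative to FVB IgG hearts by 0.20 ± 0.05, or 1.15-fold (adjusted p 0.000593). Its log2 ratio ran from -0.25 through a median of -0.09 to 0.08 in FVB IgG, from -0.12 through -0.07 to 0.13 in FVB antibody, from -0.12 through 0.11 to 0.21 in PKCε IgG and from -0.17 through 0.01 to 0.25 in PKCε antibody hearts. The groups overlapped, and 9 of 10 PKCε IgG hearts were above the FVB IgG median. Ldhb was lower by -0.26 ± 0.06, or 1.20-fold (adjusted p 0.000254), and its other 3 probe sets gave -0.23 to -0.26, all called.

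Ldhb ran from -0.23 through a median of 0.04 to 0.36 in FVB IgG, from 0.09 through 0.18 to 0.31 in FVB antibody, from -0.59 through -0.13 to 0.13 in PKCε IgG and from -0.12 through -0.06 to 0.07 in PKCε antibody hearts. Among mice given the antibody, all 12 PKCε hearts lay below all 12 FVB hearts, a separation found for 5.25% of all genes in either direction, with a difference of -0.23 ± 0.05 (adjusted p 0.000403). The antibody difference within PKCε hearts was not called for Ldha (-0.06, adjusted p 0.449) or Ldhb (0.12, adjusted p 0.166). Slc16a1, the transporter MCT1 that moves lactate across the membrane, differed by -0.01 with the transgene (interval -0.11 to 0.09).

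Pyruvate dehydrogenase kinases switch off the complex that turns pyruvate into acetyl-CoA. Pdk2 had log2 ratios from -0.62 through a median of 0.15 to 0.46 in FVB IgG, from -0.17 through 0.26 to 0.54 in FVB antibody, from -1.04 through -0.48 to -0.07 in PKCε IgG and from -0.51 through -0.03 to 0.78 in PKCε antibody hearts. All 10 PKCε IgG hearts lay below the FVB IgG median, although 1 FVB IgG heart reached -0.62. Pdk2 was lower with the transgene by -0.51 ± 0.14, or 1.43-fold (adjusted p 0.00222), and higher with the antibody in PKCε hearts by 0.48 ± 0.13, or 1.40-fold (adjusted p 0.0134, and 0.054 without the lung arrays).

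Pdk4, the isoform that fasting and fatty acids induce, was lower with the transgene by -0.68 ± 0.25, or 1.60-fold (adjusted p 0.0259). It was also the most scattered of the kinases, from -0.94 to 0.99 in FVB IgG, from -0.68 to 0.79 in FVB antibody, from -1.67 to 0.29 in PKCε IgG and from -1.38 to 0.99 in PKCε antibody hearts. Leaving out any of FVB IgG arrays 5, 6 and 7 or PKCε IgG array 6 ended the call, with adjusted p up to 0.0731, as did adding the Gapdh difference to the fit (-0.71, adjusted p 0.0744) or dropping the sex term (-0.60, adjusted p 0.0611). With the antibody it differed by 0.37 in PKCε hearts (adjusted p 0.381). Pdk1 and Pdk3 were not called with the transgene, at -0.18 (interval -0.55 to 0.19) and 0.11 (interval -0.20 to 0.41). Without the atrial arrays both were called in that comparison. The other Pdk1 probe set was called higher with the antibody in FVB hearts, at 0.31.

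Of the 7 glycogen genes 4 fell and 1 rose in PKCε IgG relative to FVB IgG hearts, beside 21.5% and 20.7% of all genes. Gys1, the muscle glycogen synthase, averaged 0.11 ± 0.30 (SD, n = 10) in FVB IgG, 0.17 ± 0.11 (n = 12) in FVB antibody, -0.23 ± 0.21 (n = 10) in PKCε IgG and -0.10 ± 0.18 (n = 12) in PKCε antibody hearts. The transgene difference was -0.37 ± 0.09, or 1.29-fold lower (adjusted p 0.000953), and both its probe sets were called. Phka1, the muscle regulatory subunit of phosphorylase kinase, was lower by -0.34 ± 0.12 (adjusted p 0.0167), on all 3 of its probe sets. That call ended without the lung arrays (-0.29, adjusted p 0.0658), with the Gapdh difference in the fit (-0.23, adjusted p 0.21) and without FVB IgG array 6 (adjusted p 0.0529). Pgm1, the phosphoglucomutase that links glucose phosphates to glycogen, was lower by -0.25 ± 0.07 (adjusted p 0.00253), with 10 of 10 PKCε IgG hearts below the FVB IgG median.

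Gbe1, the branching enzyme, was lower by -0.20 ± 0.08 (adjusted p 0.035), but its difference was 0.00 with the Gapdh 3′ minus 5′ difference in the fit (adjusted p 0.976). Ugp2, which makes the UDP-glucose that glycogen synthase uses, was higher by 0.24 ± 0.09 (adjusted p 0.0325), and by 0.10 (adjusted p 0.313) without the atrial arrays. Its other 4 probe sets gave 0.14 to 0.16, none called. Pygm and Pygb, the muscle and brain glycogen phosphorylases, were not called with the transgene under IgG, at -0.18 (interval -0.47 to 0.12) and 0.03 (interval -0.12 to 0.18). No glycogen gene was called with the antibody in PKCε hearts by limma. All 7 differences were above 0, from 0.08 for Gbe1 to 0.41 for Pygm (adjusted p 0.0615). An unadjusted p under 0.05 was found for 4 of the 7, beside 2759 of all 12394 genes.

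Among mice given the antibody, PKCε differed from FVB hearts in 12 of the 32 genes, beside 47.0% of all genes. Pfkp and Pygb were higher (Pygb by 0.18 ± 0.07, adjusted p 0.0286), and Slc2a4, Aldoc, Tpi1, Pgk1, Pgam2, Eno3, Ldhb, Gys1, Gbe1 and Pgm1 were lower. The Pygb call ended without the atrial arrays (0.16, adjusted p 0.0899), with the Gapdh difference in the fit (0.14, adjusted p 0.11) and without FVB antibody array 5 or PKCε antibody array 2 (adjusted p up to 0.0619). The differences of the genes called lower ran from -0.10 for Pgam2 to -0.40 for Slc2a4. Without array 11 of the FVB antibody group, the array that went against its sex label, Tpi1 and Pgam2 were no longer called, with adjusted p of 0.0673 and 0.0596.

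**Figure D3:**
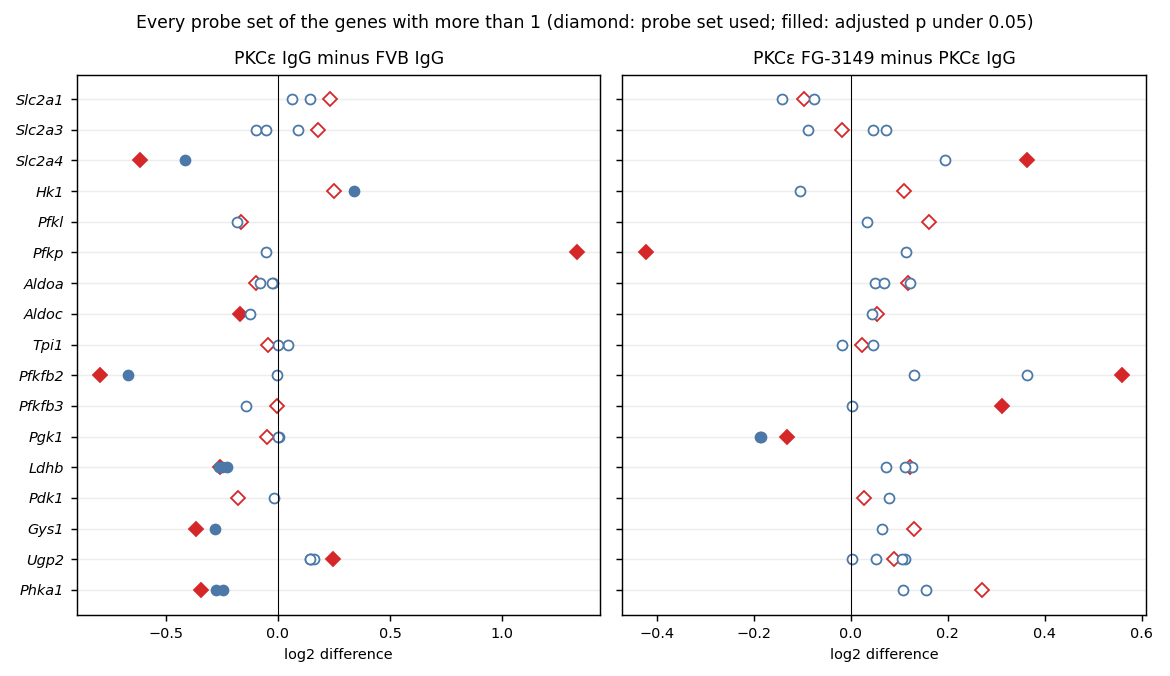
Log2 difference on every single-gene probe set of the 17 genes that have more than 1, with diamonds for the probe set used and filled symbols called at an adjusted p under 0.05. The probe sets of Ldhb, Gys1, Phka1 and Slc2a4 lie on 1 side of 0 in the transgene panel, whereas those of Pfkp lie at 1.33 and -0.05.

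The isoforms of a step were also compared within each array, as the log2 ratio of the fetal, ubiquitous or non-muscle isoform minus that of the adult muscle or heart isoform. For 8 pairs and 4 comparisons, 32 in all, group labels were permuted within sex and the p-values adjusted over the 32. Of these, 12 were called. The share of other gene pairs that would be called was not computed, so the 12 have no background beside them. Of single genes, limma called 42.2% with the transgene under IgG, 47.0% with it under the antibody and 8.82% with the antibody in PKCε hearts. With the transgene under IgG the balance moved towards the first isoform in 4 pairs. The difference was 0.89 for Slc2a1 minus Slc2a4, 0.31 for Pgam1 minus Pgam2, 0.48 for Ldha minus Ldhb and 1.43 for Pfkp minus Pfkm, with adjusted permutation p of 0.000384, 0.00156, 0.000384 and 0.000384. For Pgam1 minus Pgam2, 5 of 10 PKCε IgG hearts lay above the FVB IgG median, and without regard to sex the difference was 0.19 (adjusted p 0.364). For Hk1 minus Hk2, Pygb minus Pygm, Pfkl minus Pfkm and Aldoc minus Aldoa the differences of 0.28, 0.21, -0.10 and -0.08 were not called. Each call carries over the changes of its members given above, and Pfkp minus Pfkm rests on the same single Pfkp probe set.

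For Ldha minus Ldhb the value ran from -0.30 to -0.01 in FVB IgG and from -0.01 to 0.70 in PKCε IgG hearts, and from -0.29 to -0.15 in FVB antibody and from -0.13 to 0.31 in PKCε antibody hearts. The means were -0.16 ± 0.11 (SD, n = 10), 0.27 ± 0.20 (n = 10), -0.23 ± 0.04 (n = 12) and 0.09 ± 0.14 (n = 12) in that order. In both pairs of groups every PKCε heart lay above every FVB heart, under IgG narrowly (lowest PKCε -0.00524, highest FVB -0.0136). Ldha alone overlapped in both pairs of groups, and Ldhb alone overlapped under IgG but not under the antibody. How often other pairs of genes separate in this way was not computed. In PKCε hearts the antibody moved the balance the other way in the same 4 pairs, by -0.46 for Slc2a1 minus Slc2a4, -0.30 for Pgam1 minus Pgam2, -0.18 for Ldha minus Ldhb and -0.62 for Pfkp minus Pfkm, with adjusted permutation p of 0.00231, 0.000823, 0.00506 and 0.000427. These values use the PKCε IgG arrays of the transgene comparison, and Ldha minus Ldhb was -0.13 (adjusted p 0.0658) without the atrial arrays. In all 4 pairs the highest PKCε IgG value was that of array 9, a lung array. The pairs were run neither without the lung arrays nor with the Gapdh difference in the fit. Without regard to sex the antibody differences of Slc2a1 minus Slc2a4 and Ldha minus Ldhb were not called (adjusted p 0.118 and 0.0624).

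With the antibody in place, PKCε still differed from FVB hearts for Slc2a1 minus Slc2a4 (0.51), Ldha minus Ldhb (0.32) and Pfkp minus Pfkm (0.67), with adjusted permutation p of 0.00406, 0.00032 and 0.00032. Pgam1 minus Pgam2 was not called there, at 0.01. In FVB mice the antibody lowered 1 balance, that of Pygb minus Pygm, by -0.23 (adjusted permutation p 0.0302), which was -0.17 (adjusted p 0.136) without the atrial arrays.

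**Figure D4:**
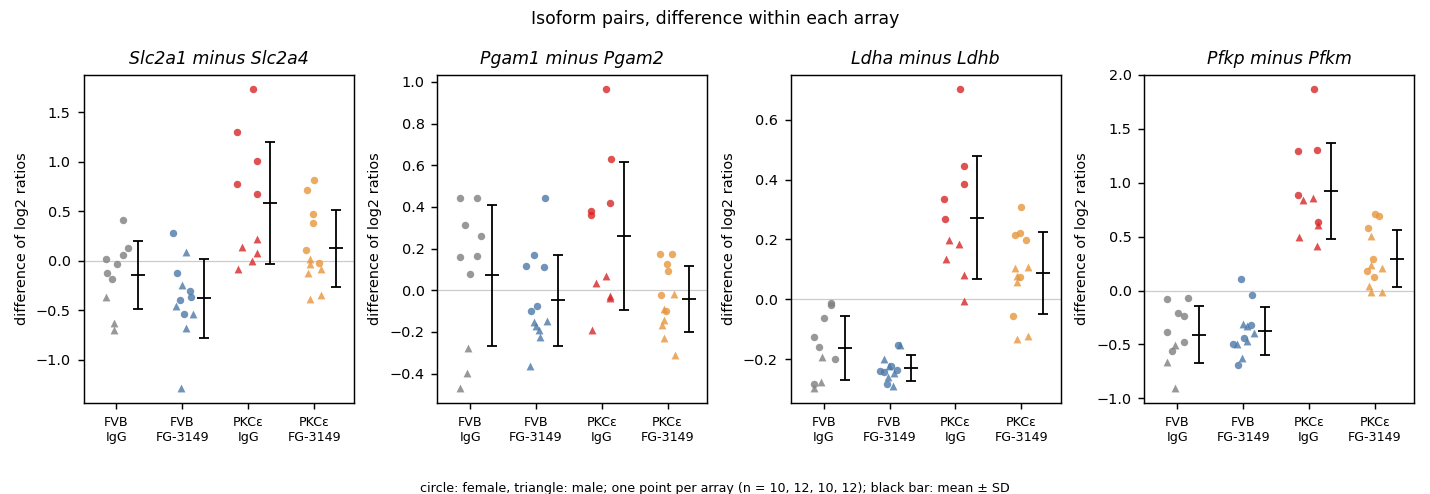
Difference of log2 ratios of 2 isoforms within each array for 4 pairs, with circles for females, triangles for males, and the mean ± SD of each group. Ldha minus Ldhb lies between -0.00524 and 0.70 in PKCε IgG hearts, narrowly above every FVB IgG heart (highest -0.0136). Slc2a1 minus Slc2a4 and Pgam1 minus Pgam2 are higher in females than in males within PKCε IgG hearts.

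Sex differed for 11 of the 32 genes over the 4 groups, beside 18.7% of all genes (9.74% higher and 8.98% lower in females). Females were higher for Slc2a1 (0.50 ± 0.07, adjusted p 2.22e-06), Pdk3 (0.40 ± 0.10), Pgam1 (0.26 ± 0.04), Pfkfb3 (0.23 ± 0.07), Pfkp (0.22 ± 0.06) and Pgk1 (0.11 ± 0.03). They were lower for Pgam2 (-0.19 ± 0.03, adjusted p 1.99e-05), Pgm1 (-0.14 ± 0.04), Pygb (-0.13 ± 0.05), Eno3 (-0.11 ± 0.03) and Aldoc (-0.09 ± 0.03). The call of Pygb ended when any of 30 of the 44 arrays was left out, that of Aldoc for any of 21, and those of Eno3 and Pgm1 without FVB IgG array 6. In PKCε IgG hearts Slc2a1 averaged 0.50 ± 0.23 (SD, n = 5) in females and -0.22 ± 0.29 (n = 5) in males, and in FVB IgG hearts 0.15 ± 0.09 (n = 7) and -0.30 ± 0.27 (n = 3). All 5 atrial arrays of the FVB IgG group were female, and without the atrial arrays 4 of the 11 calls stayed, those of Slc2a1, Pfkp, Pgam1 and Pgam2, while Pfkl was called there and not with all arrays (0.33, adjusted p 0.0277).

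A sex difference in the transgene effect was called by limma for 0 of the 32 genes, beside 0.0807% of all genes. In the antibody effect in PKCε mice it was called for 0, beside 0.0161%. At an unadjusted p under 0.05 there were 1 and 4 of the 32 genes, beside 1066 and 991 of all 12394. In males alone, where 3 FVB IgG mice were left, 9 of the 15 transgene calls under IgG stayed, without Slc2a4, Aldoc, Pgam2, Ldha, Gbe1 and Ugp2. In females alone 10 stayed, without Pdk2, Pdk4, Gbe1, Ugp2 and Phka1. Pfkl was called in males alone (-0.56, adjusted p 0.0154) and Slc2a1 in females alone (0.36, adjusted p 0.0243). In males alone 0 genes were called with the antibody in PKCε hearts, with Pfkp at -0.40 (adjusted p 0.0532) and Pfkfb2 at 0.38 (adjusted p 0.191). In females alone 4 of those 7 calls stayed, without Pfkp, Pfkfb3 and Pgk1, and Pgam2 and Pygb were called there only. The antibody difference of Pfkp was thus called in neither sex alone.

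Other genes of glucose metabolism were taken from a list of 106, of which 81 were measured. With the transgene under IgG 12 of the 81 were higher and 32 were lower, beside 20.7% and 21.5% of all genes, with a median of -0.12 beside -0.05 for all genes. The list of pyruvate and lactate handling stood lowest, with 9 of 11 lower, 1 higher and a median of -0.60. Slc16a7, the pyruvate and lactate transporter MCT2, was lower by -1.12 ± 0.10 (adjusted p 2.23e-12), and the subunits of pyruvate dehydrogenase itself, named after their values were seen, by -0.65 ± 0.09 (Pdha1), -0.41 ± 0.07 (Pdhb), -0.57 ± 0.07 (Dlat) and -0.74 ± 0.10 (Dld). Cardiomyocyte mitochondria are rich in these subunits, and the ventricular cardiomyocyte marker level given above was also lower in those hearts. The part of that level in the result was not tested.

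Among the regulators, Hif1a, the oxygen-regulated subunit of hypoxia-inducible factor, was higher with the transgene by 1.06 ± 0.07 (adjusted p 1.36e-14), while its other 3 probe sets gave 0.97, 0.16 and -0.11. Klf15, a factor that promotes Slc2a4 transcription in muscle, was lower by -0.97 ± 0.11 (adjusted p 1.01e-09). Gnpnat1 of the hexosamine pathway was higher by 0.61 ± 0.07 (adjusted p 2.02e-09). With the antibody in PKCε hearts 9 of the 81 were higher and 2 lower, beside 5.08% and 3.74% of all genes, among them Bsg, the chaperone of the lactate transporters, at 0.61 ± 0.10 (adjusted p 0.000163), Klf15 at 0.56 ± 0.10 (adjusted p 0.000435) and Akt2, the kinase that relays insulin to GLUT4, at 0.33 ± 0.07 (adjusted p 0.00204), whose other probe set gave 0.02.

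Gapdh, often used as a reference gene, was called with the antibody at 0.34 ± 0.09 (adjusted p 0.0164) on the 5′ control probe set that the rule selected. Its 3′ and middle control probe sets gave 0.08 and 0.20, neither called, and no Gapdh probe set was called with the transgene under IgG. The 5′ and 3′ probe sets are those whose difference is given above as a sign of RNA quality. That difference averaged 0.30 in PKCε IgG and 0.04 in PKCε antibody hearts. The called 5′ probe set is a term of it, so the change in the difference and the Gapdh call are not separate results. The part of RNA quality in the call was not tested. In FVB mice the antibody changed 4 of the 81 genes upwards and 7 downwards, beside 9.0% of all genes in either direction, with Ndrg1 at -0.64 ± 0.12, Tkt at -0.54 ± 0.11, Gpd2 at -0.43 ± 0.10 and Pck1 at -1.02 ± 0.25 lowest in p. The other Pck1 probe set gave 0.05 here and -0.11 for the transgene, neither called. Of the other 4 Ndrg1 probe sets 1 was called, at -0.43, and 3 gave -0.11 to -0.13. Pck1 is also abundant in fat, and 4 of 6 adipocyte markers were lower in the same comparison, whose part in it was not tested. The antibody effect differed between the kinds of mice for Ndrg1 (0.91 ± 0.16, adjusted p 0.000385), Tkt (0.51 ± 0.15, adjusted p 0.0433) and Pck1 (1.18 ± 0.35, adjusted p 0.0434).

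**Figure D5:**
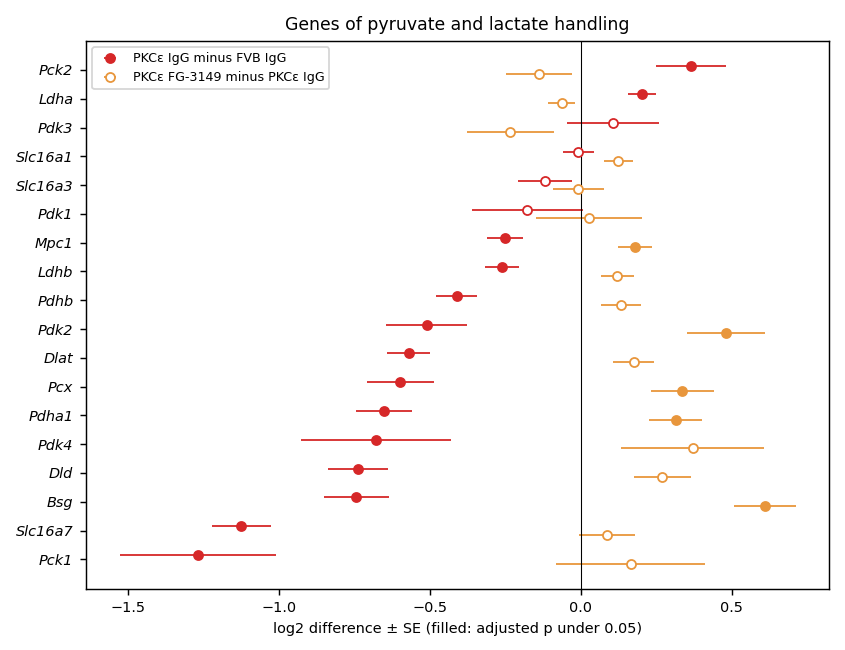
Log2 difference ± SE of the genes of pyruvate and lactate handling, with red for PKCε IgG minus FVB IgG, orange for PKCε antibody minus PKCε IgG, and filled points called at an adjusted p under 0.05. Most red points lie below 0, down to -1.12 for Slc16a7 and -1.27 for Pck1, and the filled orange points of Bsg (0.61), Pdk2, Pdha1, Pcx and Mpc1 lie above 0.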

How the data were processed

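Per the labels' protocols, 250 ng of left ventricular RNA from each mouse was labelled and hybridised to 1 array. Per the submitters' processing notes, the authors used GCRMA (version not given) and GeneSpring GX 7.3.1, and each deposited value is a linear ratio, the signal of a probe set divided by its median over the arrays, as a check of every probe set's median bore out. Such ratios hold neither brightness nor detection calls. Signal above background is therefore unknown, and precision is limited by how many arrays there are.

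Log2 was taken of each ratio, with no pseudocount. Of 22690 probe sets, 20393 named 1 gene, 691 several and 1606 none, and genes were named from the platform annotation with symbols updated through the gene identifier. Groups come from the titles. The 4 groups and sex were fitted on all 44 arrays with limma 3.58.1 (R 4.3.3, lmFit and eBayes), and a fit of 8 means of group and sex served the sex comparisons. P-values are two-sided and adjusted by Benjamini-Hochberg over all 12394 genes. Isoform pairs used 100000 permutations within sex, with 2e-05 the smallest p among them. The script was tested on simulated data.

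The 36 genes, the 106 other pathway genes, the marker lists, the isoform pairs and the tests were chosen with earlier results of these data known. Values are printed for genes called in a group comparison and for isoform pairs, others by range, and of the other pathway genes for Gapdh and up to 4 called genes with the lowest p per comparison. The alternatives tried were a fit without sex, a replicate block, array centring, averaged or all probe sets, a filter on low SD, a pseudocount of 0.1, robust eBayes, 1 sex alone, the Gapdh difference as a covariate, arrays left out, the 2 groups alone and a threshold of 0.01. The files name no genome build, and the promoter windows carry that of RefSeq.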

Additional observations from a re-analysis of the deposited data

Results flagged for a closer look

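Of 64 sets of 10 arrays (32 genes in FVB IgG and in PKCε IgG hearts), 4 held an array far from the other 9, and chance gives such a gap in about 1 in 20 sets. Pfkm was 0.46 on FVB IgG array 6, where the next highest value was 0.09, and -0.68 on PKCε IgG array 9, where the next lowest was -0.20. Pygb was 0.41 on FVB IgG array 6, where the next highest was 0.03. Ldha was -0.12 on PKCε IgG array 1, where the next lowest was 0.05.

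The antibody effect differed between PKCε and FVB mice for Pfkp, by -0.53 (higher with the antibody in FVB by 0.10 without a call, lower in PKCε by -0.42), and for Pfkfb2, by 0.65 (-0.09 in FVB without a call, 0.56 in PKCε), in the test of the difference itself. With averaged probe sets the call of Pfkfb2 stayed and that of Pfkp did not. The other Pfkfb2 probe sets, taken singly, were not called.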

How the results depend on the processing

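The transgene comparison under IgG called 10 to 17 genes under the alternatives tried, and 13 to 16 when single arrays were left out, and in the fits with 1 value per gene 9 to 15 of the 15 stayed called, with Aldoc, Pgam2 and Ldha not tested under the SD filter. With the antibody in PKCε hearts, the 7 genes became 4 with a replicate block, 0 in males only, 4 without the atrial arrays, 3 without the lung arrays and 3 at an adjusted p under 0.01, and 4 to 9 when single arrays were left out, with 4 without PKCε antibody array 12. In FVB mice the count of 0 became 2 when every probe set was tested and 0 to 2 when single arrays were left out (2 without FVB IgG array 5 or 10, and 1 without FVB IgG array 6 or 9, FVB antibody array 6, 8 or 9, or PKCε IgG array 3 or 6). Under the antibody, the 12 genes that differed between the kinds of mice became 6 in males only and 6 at the threshold of 0.01. The 2 genes whose antibody effect differed became 0 in males only, 0 in females only, and 1 each without the atrial arrays, without the lung arrays and at 0.01. For sex, 11 became 5 without the atrial arrays, 7 without the lung arrays and 5 at 0.01. The 12 called isoform balances were 8 with no sex term, 15 with averaged probe sets and 10 without the atrial arrays. The other alternatives were not run for the balances. Gbe1 changed sign, from -0.20 to 0.00 (0.003732), with the Gapdh difference in the fit. The causes of these changes were not tested. Centring arrays moved the median of all genes by at most 0.07. The numbers 1 to 12 do not pair mice: of 62 same-numbered pairs 13 correlated above 0.1, with a median of -0.05, and 1 of 44 arrays correlated best with its own number, so the replicate block was read only as an alternative. The strain difference with fewer groups in the fit was not run, as it needs all 4.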

Other observations

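The extremes of the 32 genes gathered on few arrays. PKCε antibody array 4 was the lowest of its group for 15 genes, FVB IgG array 2 for 12 and PKCε IgG array 9 for 12, and FVB IgG array 6 was the highest of its group for 15. The median over the 32 genes was -0.15, -0.24, -0.23 and 0.22 on those arrays, in that order. FVB IgG array 2 was among the atrial arrays and PKCε IgG array 9 among the lung arrays.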
